A study of Mus musculus with 2 samples.

Results

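The 9 genes described here encode heat shock proteins: Hspa1a and Hspa1b, Dnajb1, Hsph1, Hspb1, Hspa8, Hsp90aa1, Hsp90ab1 and Hspa5. They were chosen by name, and all 9 were among the 30406 features that both count matrices held. Their RNA was followed in single cells of the mouse anorectal junction, where the stratified epithelium of the anal canal meets the glandular lining of the rectum at the transition zone (TZ). The mice were K17CreERT2;R26R-GFP animals of the C57/BL6J strain, in which the Krt17 promoter drives a Cre recombinase that tamoxifen activates, and tamoxifen was given in both conditions. The Normal library came from tissue that was not wounded, and the Wounded library from cells prepared 1 week after an EDTA wound. Each library pooled at least 5 mice, was dissociated with enzymes and sorted as epithelial cells by FACS, and was 1 droplet sequencing run of 3′ ends with unique molecular identifiers (UMIs). Levels are given for the 10 clusters that the authors named, which were Basal, Suprabasal, Anal Canal and Rectum in Normal and Basal, Suprabasal, Regeneration, Wound_Stress, Hybrid and Rectum in Wounded. Cells that passed the stated filters but were in no deposited table were kept as a separate group in each library.

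Heat shock proteins are molecular chaperones, which bind unfolded polypeptides and help them fold, refold or be degraded. Heat, oxidants and other proteotoxic stress release the transcription factor HSF1, which binds heat shock elements made of inverted GAA repeats and induces the stress-responsive members of the family, while others are made at all times. Unfolded protein in the endoplasmic reticulum (ER) is sensed by a separate response, which acts through ER stress elements and raises the ER chaperones. In epithelia such as the skin, small heat shock proteins are also known as part of the differentiation of the upper cell layers.

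The promoter sequences that carry these elements are shown here because they are where HSF1 and the ER stress response are known to act. They were read from RefSeq on build GRCm38.p6, which held windows of 250 bases before to 50 bases after a start site for 6 of the 9 members. A heat shock element of 2 units, spelled GAANNTTC or TTCNNGAA, was found on either strand in 15.1% of 32851 promoters, and 4 of the 6 members had it (Hspa1a, Hspa1b, Hspb1 and Hsph1). The longer element of 3 units, GAANNTTCNNGAA, was in 0.603% of promoters and in Hsph1 alone of the 6 members. The ER stress element, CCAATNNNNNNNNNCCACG, was in 0.119% of promoters and in Hspa5 alone of the 6. Neither window of Dnajb1 held an exact match to any of these elements. Only exact matches were counted, so elements that differ from these letters were missed, and a gene without a match may still have such elements. The 250 bases upstream of Hspa1a (chr17:34972157-34972406, minus strand) and Hspb1 (chr5:135887669-135887918, plus strand) follow, 5′ to 3′, with the 2-unit elements in capitals, which start 104 bases before the start site of Hspa1a and 117 and 97 bases before that of Hspb1.
Hspa1a: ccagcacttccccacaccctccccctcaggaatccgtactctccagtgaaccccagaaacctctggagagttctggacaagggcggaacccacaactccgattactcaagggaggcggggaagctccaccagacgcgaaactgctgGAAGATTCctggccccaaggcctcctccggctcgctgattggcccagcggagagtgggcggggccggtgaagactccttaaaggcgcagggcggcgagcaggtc
Hspb1: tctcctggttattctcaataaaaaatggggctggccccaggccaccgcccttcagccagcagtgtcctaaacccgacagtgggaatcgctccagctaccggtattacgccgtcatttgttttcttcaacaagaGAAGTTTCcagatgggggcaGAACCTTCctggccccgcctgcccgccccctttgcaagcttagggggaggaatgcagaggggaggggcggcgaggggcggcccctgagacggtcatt
The 3-unit element of Hsph1 lay from base 37 to base 49 after its start site and is in capitals in the 30 bases below (chr5:149636287-149636316, minus strand). The ER stress element of Hspa5 began 65 bases before its start site and is in capitals in the last line (chr2:34772020-34772049, plus strand).
Hsph1: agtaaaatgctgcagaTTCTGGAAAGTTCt
Hspa5: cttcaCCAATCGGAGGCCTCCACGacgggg

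Hspa1a (ENSMUSG00000091971, chr17:34969190-34972156) and Hspa1b (ENSMUSG00000090877, chr17:34956436-34959238) are neighbouring genes of 1 exon each on the minus strand, with 9951 bases between them. Their coding sequences were 99.6% identical over 1926 aligned bases, and 71% of the 90-base stretches of the Hspa1a transcript's coding part were also in Hspa1b. After the stop codon the identity was 66.3% over 578 aligned bases, and no stretch of 90 bases was shared. Reads of 3′ ends that fall in the last part can therefore be told apart, but reads that reach into the coding part can match both genes. How such reads were counted or left out was not tested, so the separate values are uncertain. Their sum is given as well, but it would not restore reads that were left out. Their 300-base promoter windows had 296 bases in common and differed by C44T, T47C, T249G and C276T, counted from 1 at the 5′ end of the window with the base of Hspa1a first.

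The other members are spread over the genome (GENCODE models, GRCm38). Dnajb1 (ENSMUSG00000005483, chr8:83608193-83612653) and Hspb1 (ENSMUSG00000004951, chr5:135887919-135889563) are on the plus strand, as are Hspa8 (ENSMUSG00000015656, chr9:40800984-40810087) and Hspa5 (ENSMUSG00000026864, chr2:34771970-34777547). Hsph1 (ENSMUSG00000029657, chr5:149614287-149636376), Hsp90aa1 (ENSMUSG00000021270, chr12:110690605-110702728) and Hsp90ab1 (ENSMUSG00000023944, chr17:45567775-45573271) are on the minus strand.

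The Normal matrix held 17617944 UMIs over 2564 barcodes and the Wounded matrix 88260050 UMIs over 17216 barcodes, and the deposited tables kept 939 and 4147 of these. Clusters had 63 to 1032 cells and median depths of 8437.5 to 12616 UMIs per cell, except Hybrid, which stood apart with 2390. The median mitochondrial share was 4.28% to 9.26% over the Normal clusters and 5.91% to 12.9% over the Wounded clusters. The libraries shared 1 barcode, and their tables shared none. Cluster names were checked against marker lists. Summed rectum markers were at 5991 and 4678 UMIs per 1000000 UMIs (CPM) in the Rectum clusters and at most 828.1 CPM in the other 8, although Cdx2 was at 0 in Normal Rectum. The Wounded cluster named Basal had more of the 6 suprabasal markers (8680 CPM, among them Krt1 and Krt10) than the Wounded cluster named Suprabasal (6343 CPM), whereas Normal Basal had 828.1 CPM. The Wounded over Normal values below compare cells of one name, whatever their markers.

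Levels below are CPM of the pooled UMIs of all cells in a cluster, with an exact Poisson interval at 95%. Since each condition was 1 library, differences have no replicate check, and intervals cover counting error only. A gene is counted as higher or lower at a difference of at least 2-fold (1 on the log2 scale), which is a size and not a test. Because levels are shares of the RNA of a cluster, fewer cells with a transcript and less of it per cell cannot be told apart in them. Wounding, pooled animals, run, counting software and the set of genes counted also cannot be told apart between the libraries. Over all genes with at least 50 UMIs in a comparison, the median log2 ratio lay between -0.26 and 0.17.

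**Figure D1:**
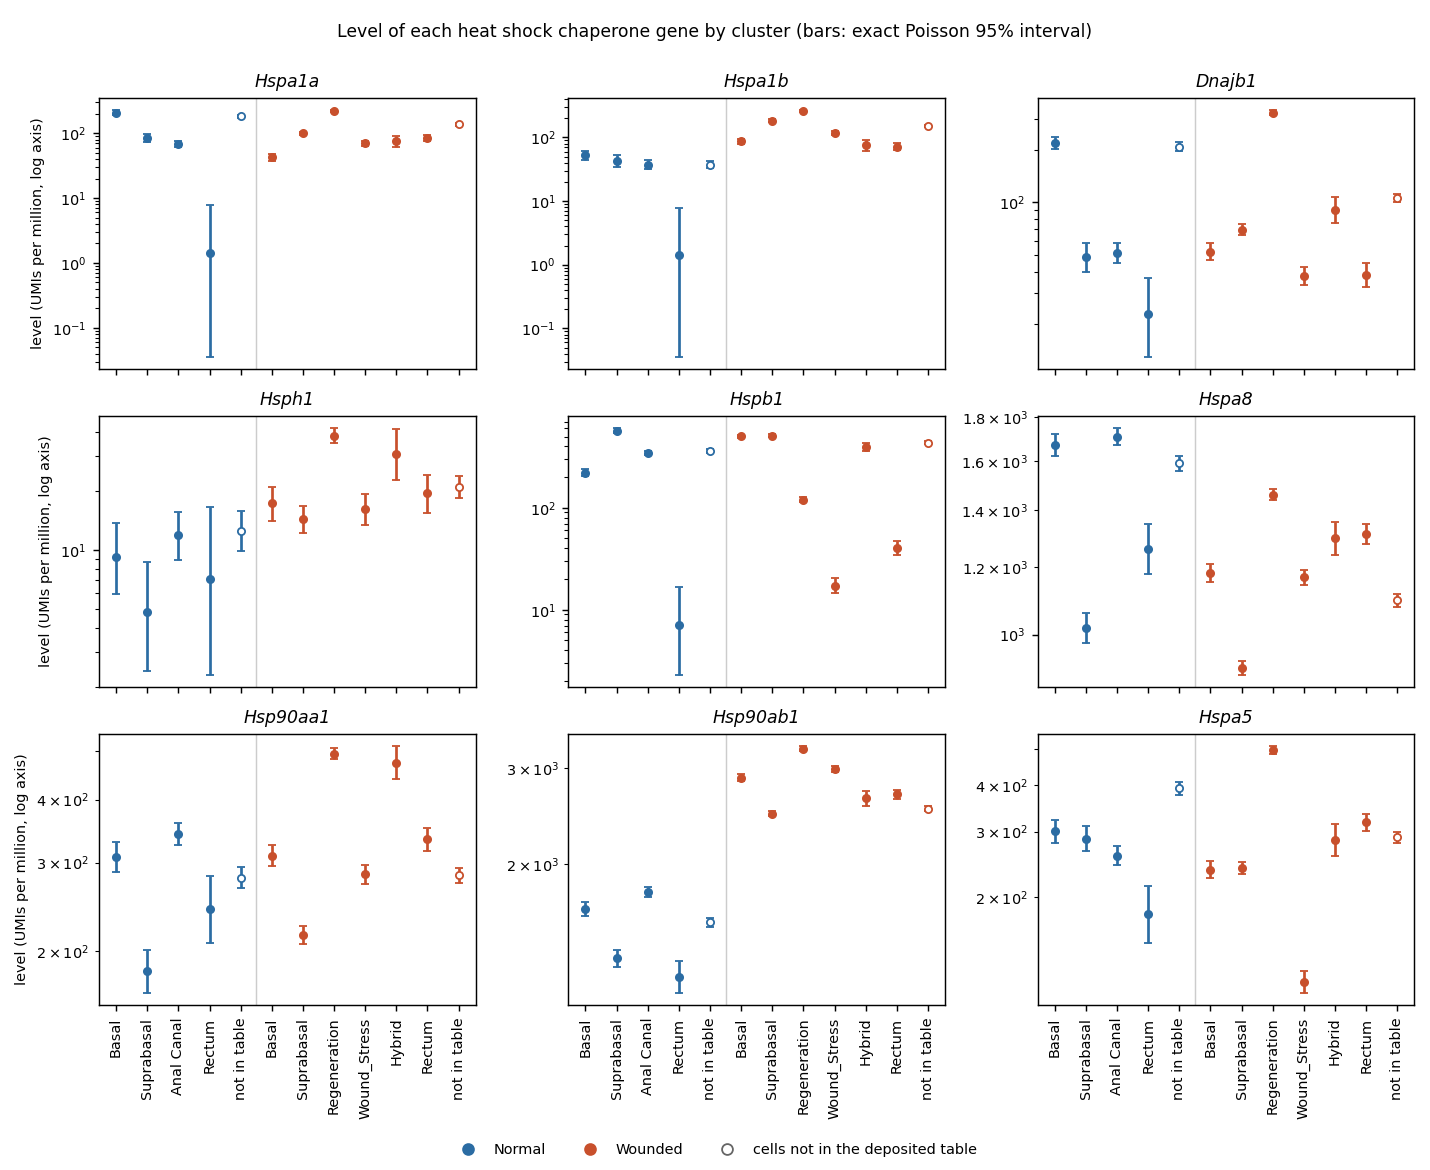
Level of each of the 9 chaperone genes (CPM, log axis, 1 panel per gene) in the 4 Normal clusters, the 6 Wounded clusters and the filter-passing cells outside the tables, with bars for exact Poisson intervals at 95%. Regeneration was highest for 7 of the 9 genes, Hspb1 spanned 7.10 to 570.4 CPM, and the Wounded points of Hsp90ab1 (2477 CPM or more) all lay above the Normal ones (1777 CPM or less).

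Hspa1a, the stress-inducible HSP70 that refolds proteins in the cytosol, was highest in Regeneration and Normal Basal and near 0 in Normal Rectum. In Normal it was at 207 CPM in Basal, 85.4 CPM in Suprabasal, 68.5 CPM in Anal Canal and 1.42 CPM in Rectum, where 1 UMI was found in 63 cells. In Wounded it was at 42.9 CPM in Basal, 99.9 CPM in Suprabasal, 218 CPM in Regeneration, 70.0 CPM in Wound_Stress, 75.5 CPM in Hybrid and 85.2 CPM in Rectum. The intervals of Regeneration (210.2 to 226.3 CPM) and Normal Basal (190.2 to 224.9 CPM) overlapped, and those 2 stood above the other 8 clusters. Of the 9 pairs of neighbours in this order, 6 had overlapping intervals. After each cell was thinned to 2000 UMIs, a UMI of Hspa1a was found in 23.9% of Regeneration cells and 21.2% of Normal Basal cells. None was found in the 60 thinned cells of Normal Rectum, which allows up to 5% of cells with a UMI at that depth (exact upper limit 5.96%) and sets no limit on cells that express the gene.

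Hspa1b, the near-identical second HSP70 gene, had the same top cluster but another order below it. It was at 52.1 CPM in Basal, 42.9 CPM in Suprabasal, 37.4 CPM in Anal Canal and 1.42 CPM (1 UMI) in Rectum of the Normal library. In the Wounded library it was at 87.3 CPM in Basal, 184 CPM in Suprabasal, 258 CPM in Regeneration, 118 CPM in Wound_Stress, 75.5 CPM in Hybrid and 71.5 CPM in Rectum. Every Wounded cluster was above every Normal cluster for Hspa1b, whereas Hspa1a had Normal Basal among its highest. The highest level was 182-fold the lowest for Hspa1b and 154-fold for Hspa1a, both against the 1 UMI of Normal Rectum.

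In the clusters and the cells outside the tables, the split of UMIs between the 2 genes followed the library. Hspa1a made up 79.9% of the UMIs of the pair in Normal Basal (exact Clopper-Pearson interval 76.7% to 82.8%), 66.6% in Suprabasal, 64.7% in Anal Canal and 83% in the cells outside the table. In Wounded it made up 32.9% in Basal (29.6% to 36.4%), 35.2% in Suprabasal, 45.8% in Regeneration, 37.2% in Wound_Stress, 50% in Hybrid, 54.3% in Rectum and 47.7% outside the table. The 3 Normal clusters with more than 2 UMIs of the pair were thus at 64.7% or more, and the 6 Wounded clusters at 54.3% or less. Among barcodes that did not pass the filters, the pair split as 38 UMIs of Hspa1a and 36 of Hspa1b in Normal and as 867 and 1341 in Wounded. The Normal barcodes that did not pass thus lacked the excess of Hspa1a seen in the Normal clusters. The matrix headers named Cell Ranger 3.1.0 for Normal and 4.0.0 for Wounded, and the part of the counting in this split was not tested.

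**Figure D2:**
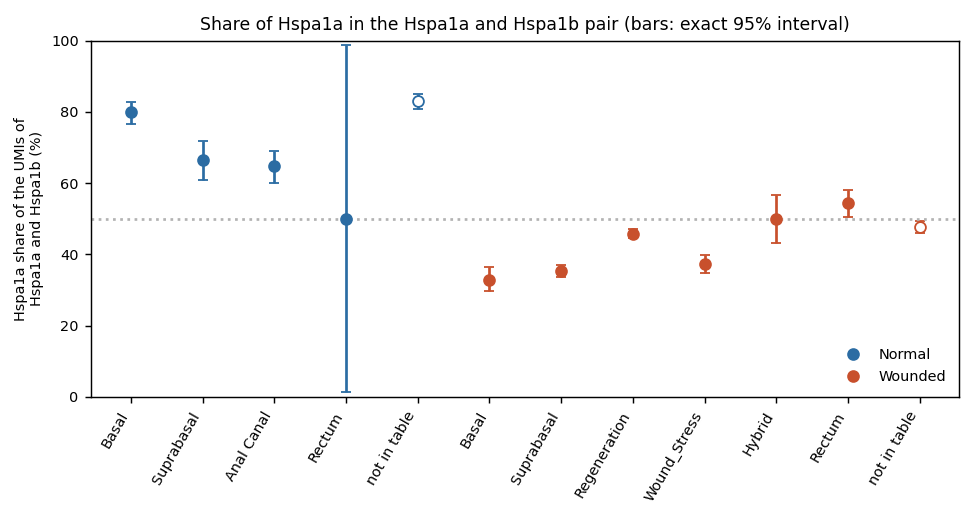
Share of the UMIs of Hspa1a and Hspa1b together that were assigned to Hspa1a (percent, with exact Clopper-Pearson intervals at 95%) in each cluster and, as open points, in the cells outside the tables, with a dotted line at 50%. The Normal shares ran from 64.7% to 83% apart from Rectum, which had 2 UMIs in all, and the Wounded shares from 32.9% to 54.3%.

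Summed, the pair was at 259.1 CPM in Normal Basal and 130.1 CPM in Wounded Basal, a log2 ratio of -0.99 (-1.14 to -0.84). In Suprabasal the sum went the other way, from 128.4 CPM in Normal to 283.6 CPM in Wounded (1.14, 0.97 to 1.32). In Rectum it was at 2.84 CPM in Normal and 156.7 CPM in Wounded (5.79, 3.93 to 8.83), against 2 UMIs. Within Wounded, Regeneration had 476.2 CPM of the pair, 1.87 (1.76 to 1.98) above Basal on the log2 scale. The direction of the Basal difference for the sum was that of Hspa1a and not that of Hspa1b, whose own ratio was 0.74.

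Dnajb1, a J-domain protein that delivers clients to HSP70 and drives its ATPase, followed Hspa1a at both ends. It was at 218.5 CPM in Basal, 48.2 CPM in Suprabasal, 51.4 CPM in Anal Canal and 22.7 CPM in Rectum of Normal. Among the Wounded clusters it was at 52.1 CPM in Basal, 69.6 CPM in Suprabasal, 326.7 CPM in Regeneration, 37.8 CPM in Wound_Stress, 90.4 CPM in Hybrid and 38.4 CPM in Rectum. Regeneration and Normal Basal were again the highest clusters, here with intervals that did not overlap. Between Wound_Stress and Regeneration the log2 ratio was -3.11 (-3.29 to -2.94), the most negative of the 9 members in that comparison. A UMI was found in 35.7% of thinned Regeneration cells and 6.60% of Wound_Stress cells.

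Hsph1, an HSP110 protein that exchanges the nucleotide of HSP70, was rare. Its level was 9.24 CPM in Basal, 4.82 CPM in Suprabasal, 11.9 CPM in Anal Canal and 7.10 CPM in Rectum of Normal, and 17.3 CPM in Basal, 14.3 CPM in Suprabasal, 38.2 CPM in Regeneration, 16.1 CPM in Wound_Stress, 31.0 CPM in Hybrid and 19.5 CPM in Rectum of Wounded. All 9 pairs of neighbours in its order had overlapping intervals, so only clusters far apart in the order can be separated. Regeneration (34.9 to 41.7 CPM) was above all clusters but Hybrid (22.7 to 41.4 CPM).

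Hspa1a, Hspa1b, Dnajb1 and Hsph1 were also counted together in each thinned cell. In Regeneration 9.94% of 986 cells (8.14% to 12%) had UMIs of at least 3 of the 4 genes, and 40.1% had none of them. In Normal Basal 1.96% of 255 cells (0.64% to 4.52%) had at least 3, and in Wounded Suprabasal 1.57% of 1020 cells. The other 7 clusters had 1.09% or less. Normal Rectum was at the other end, with 90% of its 60 cells holding none of the 4 genes.

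**Figure D3:**
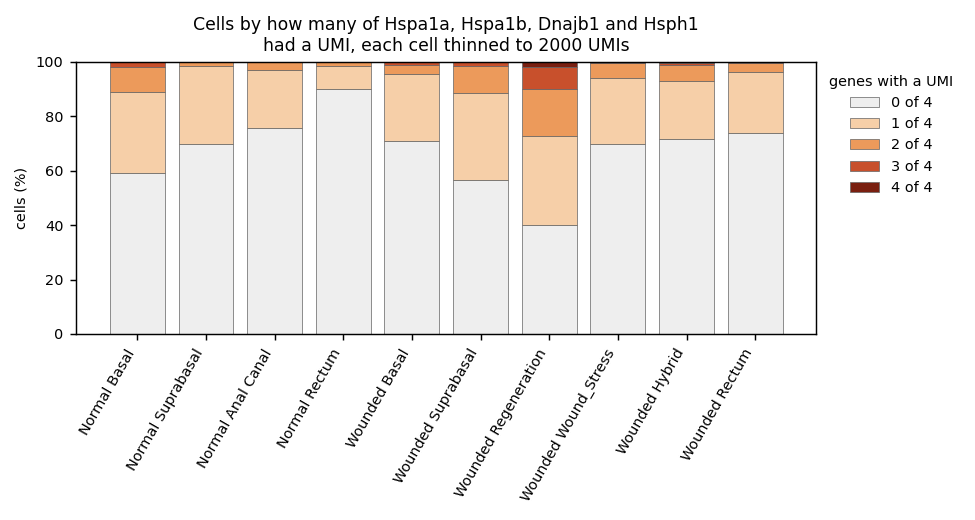
Share of cells in each cluster (percent) by how many of Hspa1a, Hspa1b, Dnajb1 and Hsph1 had a UMI after thinning each cell to 2000 UMIs. In Regeneration 9.94% of cells had at least 3 of the 4, against 1.96% or less in the other 9 clusters.

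Hspb1, the small heat shock protein (HSP27 in human) that holds unfolded proteins and binds actin, had a pattern of its own. It was at 221.8 CPM in Basal, 570.4 CPM in Suprabasal, 346.5 CPM in Anal Canal and 7.10 CPM (5 UMIs) in Rectum of Normal. The Wounded levels were 502.4 CPM in Basal, 511.9 CPM in Suprabasal, 120.3 CPM in Regeneration, 17.3 CPM in Wound_Stress, 395.1 CPM in Hybrid and 40.6 CPM in Rectum. It was thus high in the clusters of stratified names and low in both Rectum clusters and in Wound_Stress. Its 2 highest clusters did not have overlapping intervals, and only 3 of 9 pairs of neighbours did. The share of thinned cells with a UMI ran from 59.0% in Normal Suprabasal to 1.71% in Wound_Stress and 1.67% in Normal Rectum. Shares as low as the last were not read as expression, since free RNA in droplets can give a UMI to any cell. In Regeneration 85.5% of the UMIs of Hspb1 were in the tenth of cells with the most. In Wound_Stress only 5.73% of cells had a UMI of Hspb1 before thinning, too few for such a share to be read.

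Markers of the upper layers moved in part with Hspb1. The 6 suprabasal markers were at 828.1 CPM in Normal Basal, 12814 CPM in Normal Suprabasal, 10297 CPM in Normal Anal Canal and 8680 CPM in Wounded Basal, but at 281.7 CPM in Regeneration and 265.8 CPM in Wound_Stress. Regeneration and Wound_Stress had these markers at about the same level, while Hspb1 differed between them by -2.80 (-3.07 to -2.54) on the log2 scale. In Rectum, Hspb1 was at 7.10 CPM in Normal and 40.6 CPM in Wounded (2.52, 1.27 to 4.16), beside 5 stratified basal markers at 214.4 and 558.6 CPM and 6 fibroblast markers at 1.42 and 242.3 CPM. Of the fibroblast markers 5 of 6 were at 0 in Normal Rectum and none in Wounded Rectum. The sort kept EpCam+ cells and left out cells with PDGFRa, a fibroblast surface protein. The part of such cells or of their RNA in these differences was not tested.

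Hspa8, the constitutive HSC70, varied least of the 9 genes. It was at 1669 CPM in Basal, 1018 CPM in Suprabasal, 1708 CPM in Anal Canal and 1261 CPM in Rectum of Normal, and at 1181 CPM in Basal, 914.4 CPM in Suprabasal, 1460 CPM in Regeneration, 1167 CPM in Wound_Stress, 1297 CPM in Hybrid and 1313 CPM in Rectum of Wounded. The highest cluster, Normal Anal Canal, was 1.87-fold the lowest, Wounded Suprabasal. Suprabasal was the lowest cluster in both libraries, by -0.71 (-0.79 to -0.64) below Basal in Normal and by -0.37 (-0.41 to -0.32) in Wounded on the log2 scale.

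Hsp90aa1, the inducible cytosolic HSP90, shared the low Suprabasal level. It was at 307.2 CPM in Basal, 182.7 CPM in Suprabasal, 341.9 CPM in Anal Canal and 242.8 CPM in Rectum of Normal. In Wounded it was at 309.6 CPM in Basal, 215.7 CPM in Suprabasal, 493.2 CPM in Regeneration, 284.4 CPM in Wound_Stress, 473.4 CPM in Hybrid and 333.3 CPM in Rectum. Regeneration and Hybrid were the highest and had overlapping intervals. Basal was at nearly the same level in both libraries, with a log2 ratio of 0.01 (-0.11 to 0.13).

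Hsp90ab1, the constitutive HSP90 that many kinases and receptors need, separated the libraries rather than the clusters. It was at 1653 CPM in Basal, 1342 CPM in Suprabasal, 1777 CPM in Anal Canal and 1241 CPM in Rectum of Normal. Among the Wounded clusters it was at 2887 CPM in Basal, 2477 CPM in Suprabasal, 3262 CPM in Regeneration, 2996 CPM in Wound_Stress, 2645 CPM in Hybrid and 2690 CPM in Rectum. All 6 Wounded clusters were above all 4 Normal clusters, and only 2 of 9 pairs of neighbours had overlapping intervals. The log2 ratio of Wounded over Normal was 0.80 (0.76 to 0.85) in Basal, 0.88 (0.83 to 0.94) in Suprabasal and 1.12 (1.02 to 1.22) in Rectum. Outside the tables it was at 1563 CPM in Normal and 2530 CPM in Wounded. In barcodes that did not pass the filters, counted without mitochondrial UMIs, it was at 1318 CPM in Normal and 1454 CPM in Wounded, a smaller gap than in the passing cells (1675 and 3098 CPM on the same scale). The gap was there at each mitochondrial share in Basal, with 1764 and 3194 CPM in cells under 5%, 1512 and 3111 CPM at 5 to 10%, and 1079 and 2341 CPM at 10 to 25%. The part of the counting in this gap was not tested.

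Hspa5, the HSP70 of the ER known as BiP, was highest in Regeneration and lowest in Wound_Stress. In Normal it was at 300.6 CPM in Basal, 287 CPM in Suprabasal, 258.2 CPM in Anal Canal and 180.3 CPM in Rectum. The Wounded levels were 236.9 CPM in Basal, 239.2 CPM in Suprabasal, 496.5 CPM in Regeneration, 118.2 CPM in Wound_Stress, 285.2 CPM in Hybrid and 317.7 CPM in Rectum. Both ends stood apart from the other 8 clusters, and the Wound_Stress over Regeneration log2 ratio was -2.07 (-2.17 to -1.97). Most of the clusters between had overlapping intervals with a neighbour, at 6 of 9 pairs in all.

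The summed level of the 9 genes was 4638 CPM in Basal, 3582 CPM in Suprabasal, 4601 CPM in Anal Canal and 2965 CPM in Rectum of Normal. In Wounded it was 5317 CPM in Basal, 4726 CPM in Suprabasal, 6674 CPM in Regeneration, 4825 CPM in Wound_Stress, 5368 CPM in Hybrid and 4909 CPM in Rectum. Of the 10 clusters, RNA of these 9 genes thus took the largest share of UMIs in Regeneration and the smallest in Normal Rectum. The constitutive Hsp90ab1 and Hspa8 made up most of the sum. They were at 3262 and 1460 CPM in Regeneration and at 1241 and 1261 CPM in Normal Rectum. Outside the tables, the 186 Wounded cells of a cluster led by Pyy, Insl5 and Ppy had 7147 CPM, above Regeneration. That cluster, whose leading genes came from all its 289 cells, had hair follicle as its highest marker list, as described below. The lowest Wounded cluster (Suprabasal) and the highest Normal cluster (Basal) had overlapping intervals.

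**Figure D4:**
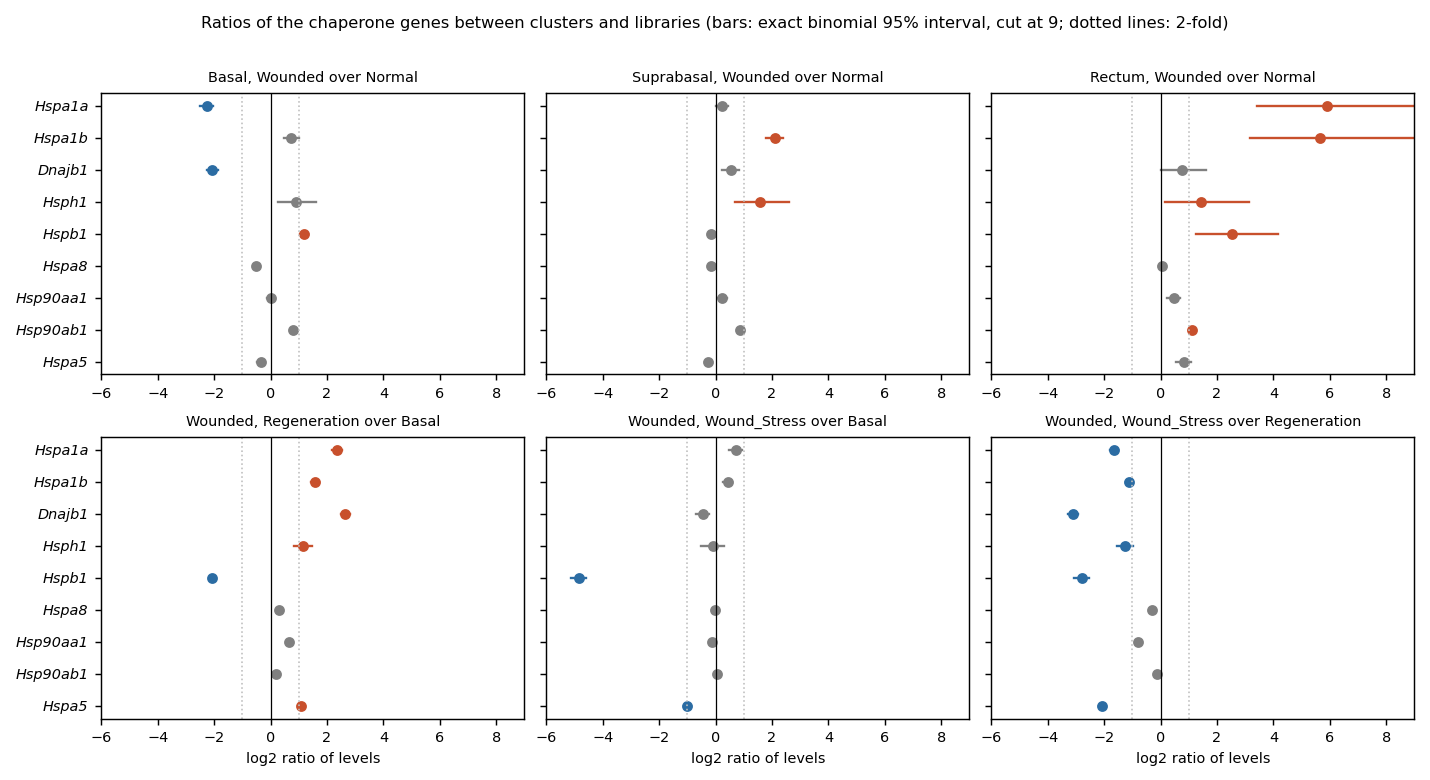
Log2 ratio of the level of each of the 9 chaperone genes in 6 of the 12 comparisons (1 panel each, with exact binomial intervals at 95%, cut at 9), with a line at 0, dotted lines at the 2-fold size, and red and blue for genes past it. Regeneration over Basal had 5 genes right of the 2-fold line, and Wound_Stress over Regeneration had 6 left of it.

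The first comparison asked how the chaperones differed with the wound in cells of one name. In Basal, 1 of 9 members was at least 2-fold higher in Wounded (Hspb1, 1.18, 1.05 to 1.31), where 13.9% of all genes tested were, and 2 were at least 2-fold lower (Hspa1a, -2.27, -2.49 to -2.05, and Dnajb1, -2.07, -2.27 to -1.87), where 12.1% were. For Hspa1a and Hspa1b summed the ratio was -0.99, short of 2-fold. The median over the members was 0.01. Hspb1 did not reach 2-fold when each cell had equal weight, which left 0 of 9 higher. The lower Hspa1a level in Wounded Basal was there at each mitochondrial share, with 212.9 and 39.5 CPM in cells under 5%, 180.7 and 39.7 CPM at 5 to 10%, and 334.8 and 50.1 CPM at 10 to 25%. In Suprabasal, 2 of 9 were higher in Wounded (Hspa1b, 2.10, 1.80 to 2.40, and Hsph1, 1.57, 0.70 to 2.60), against 14.3% of genes, and 0 were lower, against 4.58%. In Rectum, 5 of 9 were higher in Wounded (Hspa1a, Hspa1b, Hspb1, Hsph1 and Hsp90ab1), against 9.97%, and 0 were lower, against 5.01%. Hspb1 and Hsph1 did not stay past 2-fold when each cell had equal weight (0.65 and 0.85), which left 3 of 9. The Rectum ratios of Hspa1a (5.91, 3.42 to 11.21) and Hspa1b (5.65, 3.17 to 10.96) each rest on 1 UMI in Normal, while Hspa8 differed by 0.06 (-0.04 to 0.16) there.

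The second question was how clusters of the Normal library differed from its Basal cells. Hsph1 had fewer than 50 UMIs in the Suprabasal and Rectum comparisons and was left out of them. Suprabasal had 1 of 8 members tested at least 2-fold higher (Hspb1, 1.36), against 5.81% of genes, and 2 lower (Hspa1a, -1.28, and Dnajb1, -2.18), against 13.8%. Among the cells below the median share of immediate-early UMIs, a split described below, Dnajb1 was at 38.3 CPM in Suprabasal, 34.5 CPM in Anal Canal and 36.5 CPM in Basal. Its lower level in both was thus lost there. The Suprabasal ratio turned to 0.07, but the intervals overlapped (27.7 to 51.6 CPM in Suprabasal, 26.6 to 48.9 CPM in Basal), so no direction can be read. Hspa1a was at 58.8 CPM in Suprabasal and 107.9 CPM in Basal among these cells, short of 2-fold. The cells were not matched in immediate-early RNA, at 821.8 CPM in Suprabasal and 1235 CPM in Basal. Anal Canal had 0 of 9 higher, against 7.07%, and the same 2 genes lower (-1.60 and -2.09), against 8.07%. Rectum had 0 of 8 higher, against 13.6%, and 4 lower (Hspa1a, Hspa1b, Dnajb1 and Hspb1), against 16.5%. These 3 comparisons share the Basal cells, in which Hspa1a and Dnajb1 were high, so they are not independent of each other.

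The third question was how the clusters of the Wounded library differed from Wounded Basal, which all 5 comparisons share. Regeneration had 5 of 9 members at least 2-fold higher, against 10.8% of genes, namely Dnajb1 (2.65, 2.48 to 2.82), Hspa1a (2.35, 2.16 to 2.54), Hspa1b (1.56, 1.43 to 1.70), Hsph1 (1.15, 0.83 to 1.47) and Hspa5 (1.07, 0.98 to 1.15), and 1 lower (Hspb1, -2.06), against 11.3%. Suprabasal had 2 higher (Hspa1a, 1.22, and Hspa1b, 1.07), against 8.54%, and 0 lower, against 9.19%. Wound_Stress had 0 higher, against 8.69%, and 2 lower (Hspb1, -4.86, -5.13 to -4.61, and Hspa5, at the edge of 2-fold with an interval of -1.13 to -0.88), against 10.5%. Hspa5 fell short of 2-fold without mitochondrial UMIs in the total (-0.97), without the top 1% of cells (-0.74), with the deposited whole numbers (-0.86) and among cells below the immediate-early median (-0.84). Rectum had 0 higher, against 16.8%, and 1 lower (Hspb1, -3.63), against 10.4%. Hybrid had 0 higher, against 8.82%, and 0 lower, against 6.13%, with values between -0.35 for Hspb1 and 0.85 for Hsph1.

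Set directly against Regeneration, Wound_Stress had 0 of 9 members at least 2-fold higher, against 2.78% of genes, and 6 lower, against 5.33%. The 6 were Dnajb1 (-3.11), Hspb1 (-2.80), Hspa5 (-2.07), Hspa1a (-1.64), Hsph1 (-1.25) and Hspa1b (-1.13), and the other 3 were also below 0 (Hsp90aa1 -0.79, Hspa8 -0.32 and Hsp90ab1 -0.12). The median of the 9 was -1.25, while that of all genes tested was 0.13. Both clusters carried anal gland markers, at 4220 and 3447 CPM summed, against 223.5 CPM in Wounded Basal and between 175.1 CPM (Normal Anal Canal) and 1079 CPM (Normal Rectum) in the others. These markers are genes that the study lists for its own anal gland cluster of these samples, so they are not independent of these data.

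Other genes of the HSF1 network, 24 in all, were set beside the members. In Regeneration over Basal 4 of 24 were at least 2-fold higher, against 10.8% of all genes, and 0 lower, against 11.3%, with a median of 0.25. Of its 3 most abundant genes, Dnaja1, a J-domain partner of HSP70, was at 474 CPM in Regeneration and 121.3 CPM in Basal (1.97, 1.85 to 2.08). Hspd1 and Hspe1, the mitochondrial chaperonin and its co-chaperonin, differed by 0.68 and 0.54. In Wound_Stress over Regeneration 5 of 24 were lower, against 5.33%, and 0 higher, against 2.78%, with a median of 0.03. In Basal, Wounded over Normal, 3 of 24 were lower, a share near the 12.1% of all genes, and 0 were higher. Hspe1 was among the lower (506.5 CPM in Normal and 210.8 CPM in Wounded, -1.26).

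Hspa5 and the abundant folding genes of its compartment differed in opposite directions in Regeneration and in the same direction in Wound_Stress. In Regeneration over Basal, 3 of the 20 genes of an ER folding list were at least 2-fold higher, against 10.8% of all genes. Another 3 were lower, against 11.3%, with a list median of -0.66, while Hspa5 was at 1.07. The list also holds transcription factors of the ER stress response, such as Atf4, Ddit3 and Xbp1, which do not fold proteins. The 3 higher were Atf4, Ddit3 and Dnajb9 and the 3 lower Herpud1, Hyou1 and Sdf2l1, all named after their values were seen. Of the 20 genes, 16 were below 0. Calr (calreticulin), Hsp90b1 (the HSP90 of the ER) and Pdia3 (a disulfide isomerase), the 3 most abundant of the list, were lower in Regeneration than in Basal by -0.79, -0.87 and -0.97. In Wound_Stress over Basal the list had 4 of 20 lower, against 10.5%, and 0 higher, with a median of -0.68. Calr, Hsp90b1 and Pdia3 were lower there by -0.86, -0.67 and -0.83, and Hspa5 was lower as well, at 118.2 CPM against 236.9 CPM. The Basal level of Hspa5 includes 1 cell with 214 of its 1360 UMIs. The 8 subunits of the TRiC chaperonin, which folds actin and tubulin, had 0 members past 2-fold in either direction in both comparisons, and Cct5, Cct2 and Cct4 differed by 0.24, 0.13 and 0.62 in Regeneration over Basal.

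Immediate-early genes, which respond within minutes to wounding, growth factors and also to the dissociation of tissue, moved beside several members. Summed over 14 such genes, their level was 10038 CPM in Basal, 2210 CPM in Suprabasal, 1877 CPM in Anal Canal and 2303 CPM in Rectum of Normal. In Wounded it was 932.2 CPM in Basal, 4049 CPM in Suprabasal, 17232 CPM in Regeneration, 1261 CPM in Wound_Stress, 3728 CPM in Hybrid and 2978 CPM in Rectum. The clusters with the most, Regeneration and Normal Basal, were also those with the most Hspa1a and Dnajb1, and the 2 with the least, Wounded Basal and Wound_Stress, had Hspa1a at 42.9 and 70.0 CPM and Dnajb1 at 52.1 and 37.8 CPM. Normal Rectum did not follow this order, since it had the lowest Hspa1a (1.42 CPM) and Dnajb1 (22.7 CPM) with more immediate-early RNA than Normal Suprabasal or Anal Canal. All 14 genes were at least 2-fold higher in Regeneration than in Wounded Basal (median 4.60), and all 14 were at least 2-fold lower in Wounded than in Normal Basal (median -3.46). Fos, Jun and Btg2, the most abundant of them, differed by -4.39, -3.34 and -4.10 in that Basal comparison. Within clusters the 5 genes most correlated with Hspa1a over cells, by the mean of r over the 10 clusters among 2050 genes, were Fos (0.17), Jun (0.16), Btg2 (0.13), Junb (0.11) and Jund (0.11). Normal Rectum, where no thinned cell had a UMI of Hspa1a, has no defined r and entered this mean as 0. These coefficients are weak, cells of a cluster share their library, and they are given as a description.

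The cells of each cluster were therefore split into those below and those above the median share of immediate-early UMIs, a step chosen after the levels were seen. In Normal Basal, Dnajb1 was at 36.5 CPM below the median and 371 CPM above it. The cells below the median also had fewer UMIs in Normal Basal, with medians of 8956 and 11692.5, and Dnajb1 was at 143 CPM in the shallower and 252.5 CPM in the deeper cells of that cluster. Mitochondrial shares moved most with the split in Hybrid, at 5.81% below and 13% above it, and the part of depth and quality was not tested. Hspa1a was at 108 and 290 CPM in Normal Basal, and Hspa5 at 176.1 and 404.7 CPM. In Wounded Basal, Dnajb1 was at 27.1 and 78.6 CPM and Hspa1a at 21.3 and 65.7 CPM. Regeneration had the narrowest difference of the Wounded clusters for Hspa1a, with 203 CPM below and 237 CPM above the median, and its Dnajb1 was at 251 and 416 CPM. Its immediate-early RNA also differed least between the parts, 2.49-fold against 3.39-fold to 9.78-fold in the other Wounded clusters. The Regeneration cells below the median still held 10249 CPM of it, so the split does not set cells with little of this RNA apart there. Among the cells below the median, Dnajb1 was no longer 2-fold lower in Wounded than in Normal Basal, whereas Hspa1a was. The members counted became 2 higher and 1 lower of 9, without a share of all genes in these cells to set beside them. These cells were not matched in immediate-early RNA, at 1235 CPM in Normal Basal and 263.8 CPM in Wounded Basal. Hspa1b went the other way from Hspa1a in them, at 30.03 CPM in Normal and 60.62 CPM in Wounded. Since the split of the pair followed the library, the Hspa1a value alone does not show a lower level of the pair. The summed pair was not tested in these cells.

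**Figure D5:**
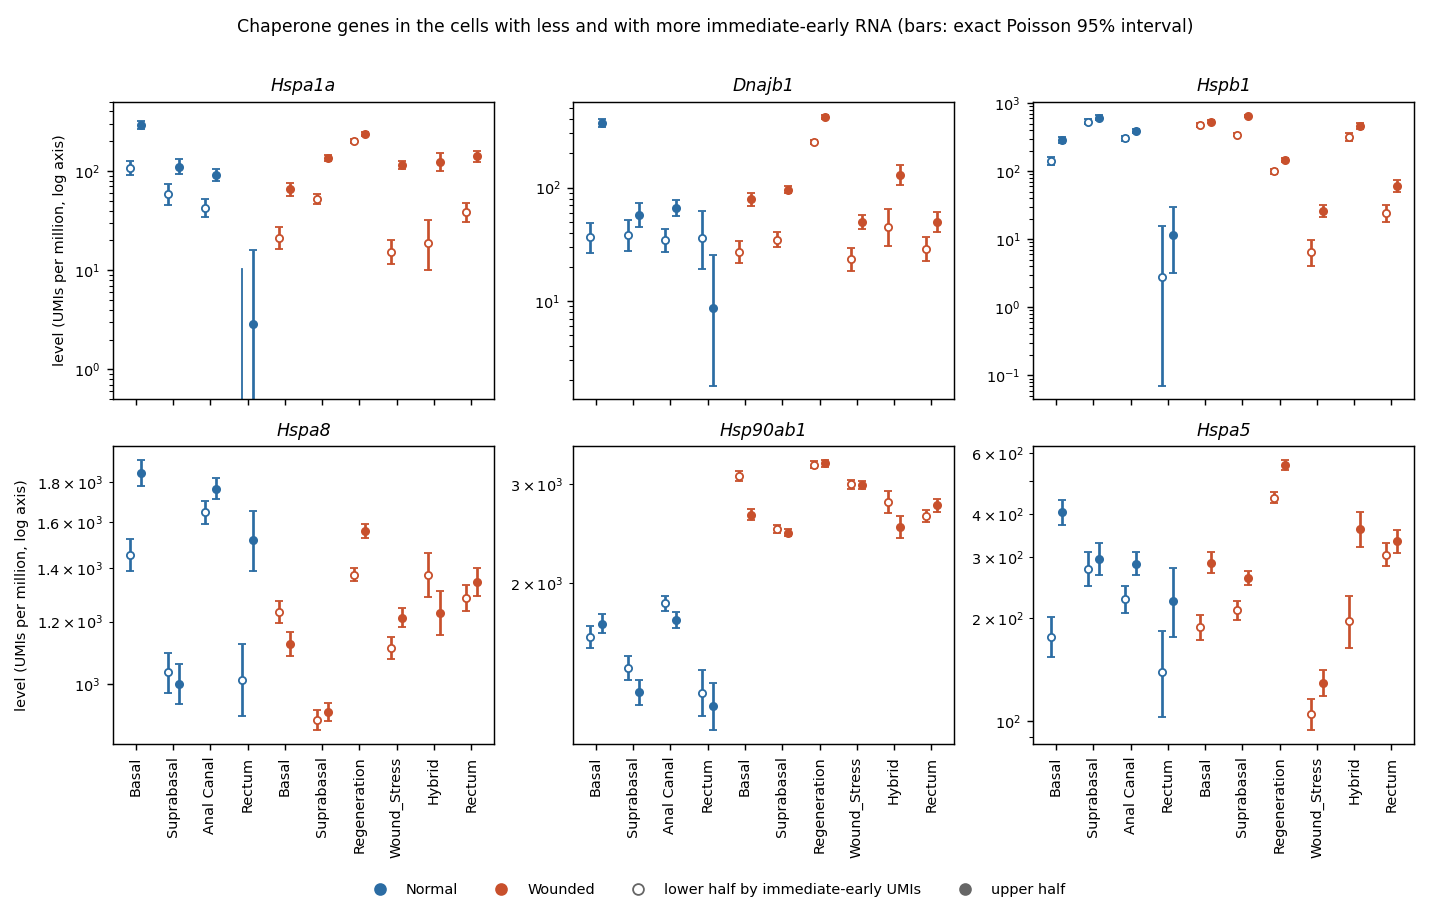
Level (CPM, log axis, exact Poisson intervals at 95%) of 6 chaperone genes in the cells below (open points) and above (filled points) the median share of immediate-early UMIs of each cluster, with a level of 0 drawn as a line up to its upper bound. In Normal Basal, Dnajb1 was at 36.5 CPM below and 371 CPM above the median, while in Regeneration it was at 251 and 416 CPM.

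Over the 10 clusters, cells above the median had more Hspa1a, Dnajb1 and Hspb1 than those below it, with a log2 interval above 0, in 9 clusters each, with median log2 ratios of 1.40, 1.02 and 0.73. Hspa5 had such an interval in 8 clusters (median 0.33) and Hspa1b in 7 (0.93). Hspa8 had it in 5 clusters, Hsp90aa1 in 4, Hsph1 in 1 and Hsp90ab1 in 1, with medians between -0.05 and 0.15. Intervals below 0 were found in 4 clusters for Hsp90ab1, 3 for Hsp90aa1, 2 for Hspa8 and 1 for Dnajb1, which was Normal Rectum (-2.06, -4.51 to -0.19). Hspa1a and Dnajb1 were thus higher in 9 of 10 clusters in cells with more immediate-early RNA, while the inducible Hsp90aa1 and Hsph1 had medians of 0.15 and 0.07, near those of the constitutive Hspa8 and Hsp90ab1. Hsph1 had few UMIs in most clusters and an interval that held 0 in all but Regeneration, so its median cannot show that a rise is absent. In Regeneration, Hsp90aa1 (0.44) and Hsph1 (0.40) differed more between the parts than Hspa1a (0.23) and less than Dnajb1 (0.73). What dissociation, sorting or the wound itself contributed to this was not tested.

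Likeness was also measured over the 12 groups (10 clusters and the 2 groups outside the tables) as Pearson's r of log2(CPM + 1), with the groups of a library sharing depth and run. Hspa1a and Hspa1b had r = 0.81 over the groups, and within clusters their r over cells ran from -0.09 to 0.44. Normal Rectum, with 1 UMI (1.42 CPM) of each gene, lay far below the other groups for both. It entered the r over groups and the list of genes most like Hspa1a, and neither was computed without it. Among the members, Hsph1 was most like Hsp90ab1 (0.87) and Hsp90aa1 (0.83) over the groups. Over cells within clusters its mean r was 0.01 with Hsp90ab1 (-0.05 to 0.06) and 0.03 with Hsp90aa1 (-0.07 to 0.18). Over the groups, among 6889 genes, those most like Hspa1a were Lias (0.93), Gas1 (0.91), Ak4, Tnfrsf18 and Dhdds (0.90 each). Among those most like Hspb1 were Fam171a2 (0.94) and Atp11a, Notch3 and Map7d1 (0.93 each), and those most like Hspa8 were Pnpt1 (0.92), Rpp30, Brix1 and Khk (0.91 each) and Mt2 (0.90). For Hspa5 they included Cdkn1a, Klf6 and Thbs1 (0.81 each) and Dnajb9 (0.80). Over cells within clusters Hspa5 was instead most like Hsp90b1 (0.13), Manf (0.11), Pdia3, Hmgcs1 and Calr (0.10 each).

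Cells outside the deposited tables, 610 in Normal and 1078 in Wounded, held the largest Hspb1 values of all. All cells that passed the filters were clustered in each library, and levels are given here for those outside the tables. Hair follicle-like cells had Hspb1 at 1319 CPM in Normal (185 cells) and 1604 CPM in Wounded (114 cells). Anal gland-like cells had 25.8 CPM (333 cells) and 13.6 CPM (424 cells). Hspb1 was thus low in the cells outside that carried anal gland markers, as it was in Wound_Stress (17.3 CPM), while Regeneration, with more of these markers than Wound_Stress, had 120.3 CPM. An unnamed Wounded cluster, led by the gut hormone genes Pyy, Insl5 and Ppy, had Hspb1 at 1251 CPM in its 186 outside cells. Its highest marker list was hair follicle, with 7 markers detected, an average of 3.29 on the log2 scale and 0 among its 10 leading genes. The leading genes came from all 289 cells of this cluster, while the values are of the 186 outside. Over all Wounded cells outside the tables, summed rectum markers were at 64.0 CPM, against 4678 CPM in Wounded Rectum. The values thus cannot be read as those of hormone cells. Hspa1a was highest outside in another unnamed Wounded cluster, of 104 cells led by Rgs5, Myh11 and Des, at 575.9 CPM, and was at 190.2 CPM in Normal and 77.6 CPM in Wounded anal gland-like cells. Dnajb1 was at 208.7 and 72.3 CPM in the anal gland-like cells of Normal and Wounded, and at 277.3 and 224.2 CPM in the hair follicle-like cells. Hsp90ab1 was higher in Wounded under each name that both libraries held, at 1714 and 2792 CPM in anal gland-like, 1445 and 2861 CPM in hair follicle-like and 652 and 1506 CPM in fibroblast-like cells. Cells of one name may differ between the libraries. The hair follicle-like cluster was led by Lhx2 and Tbx1 in Normal (marker average 4.14) and by Rnase12 and Krt16 in Wounded (1.51). At resolution 0.4 the Normal fibroblast-like cells split into 36 cells of that name and 29 led by Actg2, Des and Cnn1.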

How the data were processed

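Cells of the anorectal junction were profiled as 1 Normal and 1 Wounded 10x library. The deposited matrices hold raw UMI counts that Cell Ranger made on mm10. They held 31054 features in Normal and 32285 in Wounded, with 30406 in both, so the gene sets counted differed. What this contributed to differences between the libraries was not tested. For the filtered cells the authors deposited a further table per library with cluster names and natural log values, each of a whole number plus 1. How those values were made is not given in the sources used here, so they served for names and 1 alternative only. The labels name Cell Ranger 3.1.0 and Seurat 3.2.2, while the header of the Wounded matrix names 4.0.0.

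Levels are the pooled counts of each cluster relative to its total (CPM), with exact Poisson, binomial and Clopper-Pearson intervals at 95% (scipy 1.17.1). Genes with at least 50 UMIs over both groups were compared, and a level of 0 was set to 3 UMIs. For shares, each cell was thinned to 2000 UMIs, and cells with fewer were not used. In each library all cells that passed the filters (over 200 and under 5000 genes, under 25% mitochondrial UMIs) were clustered with Seurat 5.3.0. The settings were 2000 variable features, 10 principal components and resolution 0.2, with the members and list genes left out of the variable features. Names and leading genes came from all cells of a cluster, and levels from its cells outside the tables. Clusters were named "-like" where a marker list averaged over 1 on the log2 scale with a marker among the 10 leading genes. The anal gland list was taken from the study's own anal gland cluster of these samples. No doublet caller was run. Promoters came from RefSeq and gene models from GENCODE (Biopython for the alignment). The scripts were tested on simulated counts.

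All 9 members were named in every cluster, with the 5 genes most like Hspa1a, Hspa8, Hspb1 and Hspa5 over groups, the 5 most like Hspa1a and Hspa5 over cells, and the 3 most abundant genes of each related list. Some genes that this rule names are not reported here. Those lists were an HSF1 network, ER folding and ER stress response genes, the TRiC chaperonin and immediate-early genes. The members and lists were chosen with earlier results of these data known.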

Additional observations from a re-analysis of the deposited data

Results flagged for a closer look

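The direction of Hspa1a differed between cell clusters in a pair of comparisons. In Basal cells the Wounded over Normal log2 ratio of Hspa1a was -2.27 and in Rectum cells it was 5.91, a difference of -8.18. For Hspa1a and Hspa1b summed, whose split followed the library, these ratios were -0.99 and 5.79. The Rectum value rests on 1 UMI in the 63 Normal cells. In Normal, Hspa1a was lower in Suprabasal than in Basal cells by -1.28 on the log2 scale, and in Wounded it was higher by 1.22, a difference of -2.50. The summed pair had -1.01 and 1.12 there. The names may not mark the same layers in both libraries. Suprabasal markers were at 828.1 CPM in Basal and 12814 CPM in Suprabasal of Normal, but at 8680 and 6343 CPM in Wounded. Neither difference was tested, since each condition was 1 library.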

How the results depend on the processing

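With 1 library per condition, no replicate could be left out. No paired analysis was possible because each condition had 1 library. The split by immediate-early UMIs was chosen after seeing the data. Among the cells below the median the Normal Suprabasal over Basal ratio of Dnajb1 turned to 0.07, with overlapping intervals of the 2 levels. The count of members at least 2-fold higher in Wounded Basal (1) was 0 with equal weight per cell and with the deposited whole numbers, 2 under 10% mitochondrial UMIs, 4 at 1.5-fold and 2 among the cells below the immediate-early median, where the count lower (2) was 1. In Wounded over Normal Rectum the count higher (5) was 3 with equal weight per cell and with the deposited whole numbers. In Normal Suprabasal over Basal the count lower (2) was 5 at 1.5-fold and 1 among the cells below the immediate-early median. In Normal Anal Canal over Basal the count higher (0) was 1 at 1.5-fold and 1 among the cells below the immediate-early median, and the count lower (2) was 1 among the cells below the immediate-early median. In Wounded Suprabasal over Basal the count higher (2) was 1 among the cells below the immediate-early median. In Wound_Stress over Basal the count lower (2) was 1 without mitochondrial UMIs in the total, without the top 1% of cells, with the deposited whole numbers and among the cells below the immediate-early median, and the count higher (0) was 1 under 10% mitochondrial UMIs and at 1.5-fold. In Wounded Rectum over Basal the count higher (0) was 1 under 10% mitochondrial UMIs, without mitochondrial UMIs in the total, without the top 1% of cells and at 1.5-fold. In Hybrid over Basal the count higher (0) was 2 under 10% mitochondrial UMIs, 1 without the top 1% of cells, 4 at 1.5-fold and 1 among the cells below the immediate-early median. The share of all genes past the size under each changed setting is not given here, so these counts have no background beside them. For these changes the cause was not tested. Depth limits Hsph1 throughout and Hspa1a, Hspa1b and Hspb1 in Normal Rectum, where they had 5 UMIs or fewer.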
